A study of Mus musculus with 12 samples.

Results

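The genes described here are the heat shock proteins and molecular chaperones of mouse perigonadal fat, together with 3 transcription factors of the stress response to misfolded proteins. They were picked by name. A gene was taken if a probe set with a single gene symbol carried a symbol that starts with Hsp, Dnaj, Cct or Pdia, or was Calr, Canx, Hyou1, Ddit3, Xbp1 or Atf4, and Hspg2, a matrix proteoglycan, was left out. This gave 65 of the 8251 genes named on the array, read through 90 probe sets, and each gene is represented by whichever of its probe sets was brightest on average. Of the 65 genes, 53 were bright enough to be tested, among 5706 tested genes, and 12 were too dim. By location, 38 genes (31 tested) were cytosolic or nuclear, 14 (12 tested) belonged to the endoplasmic reticulum (ER), 7 (6 tested) to mitochondria, 3 (2 tested) were the transcription factors and 3 (2 tested) sit elsewhere.

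RNA of perigonadal adipose tissue from 12 mice labelled female, 6 months old and fed ad libitum was hybridised to Affymetrix arrays, 1 mouse per array. There were 4 groups of 3 mice: overexpressors of Glut4 (adipose-GLUT4-Tg), whose transgene is driven by the aP2 promoter, their FVB littermate controls, adipose-Glut4-/- knockouts, and aP2-Cre transgenic mice as controls for the knockouts. The overexpressor line was on the FVB strain and the knockout line on a C57B6/FVB/SV129 mix, so the knockout controls share the Cre transgene with the knockouts and the overexpressor controls carry no transgene. Glut4, the product of Slc2a4, is the glucose transporter that insulin moves to the surface of fat and muscle cells. The aP2 promoter is that of Fabp4, which adipocytes use strongly and macrophages use too, which limits both lines as models of a change in adipocytes alone. The genotype field of the labels gives controls the same entry as their mutants, so groups were read from the sample titles.

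Chaperones bind unfolded stretches of other proteins and let them fold without clumping. In the cytosol, Hsp70 and its J protein partners (the Dnaj genes) act on short stretches, Hsp90 finishes a set of signalling proteins, and the ring-shaped TRiC complex encloses actin and tubulin. The ER has its own Hsp70 (Hspa5, also called BiP), its own Hsp90 (Hsp90b1), the sugar-binding chaperones calreticulin and calnexin, and the disulfide isomerases (the Pdia genes). Mitochondria pull proteins in with Hspa9 and fold them in the chamber made by Hspd1 and Hspe1. Heat shock factor 1 turns on the cytosolic and part of the mitochondrial set through the heat shock element, and the ER sensors turn on the ER set through the ER stress element and through Xbp1, Atf4 and Ddit3. Fat cells secrete hormones such as adiponectin in large amounts, and these pass through the ER.

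The stretches of promoter printed here hold the elements through which the ER and heat shock programmes are known to act. Promoter windows ran from 250 bases before to 50 bases after a start site (RefSeq, GRCm38.p6) and were found for 56 of the 65 genes. The ER stress element was searched on both strands as CCAAT, then 9 bases of any kind, then CCACG, and it occurred in 6 of those 56 genes (10.7%), all of them ER genes, against 37 of 27025 genes (0.137%) in the whole promoter table. The heat shock element was searched as GAA, 2 bases, TTC, 2 bases, GAA, in either orientation, and it occurred in Dnajb6, Hspd1, Hspe1 and Hsph1, that is 4 of 56 genes (7.14%) against 179 of 27025 (0.662%). A short composite site for Atf4 and Ddit3 (TGATG, 1 base of any kind, AAT) was in none of the 56 windows and in 293 of 27025 genes (1.08%). A match is a description of the letters, and a missing match says only that these letters are not in the window. The stretches are written on the strand of the gene, with the fixed letters of each element in capitals: Hspa5 lies at chr2:34771995-34772073 (plus strand), Calr at chr8:84847045-84847123 (minus), Canx at chr11:50325770-50325848 (minus), Dnajc3 at chr14:118937797-118937875 (plus), Pdia6 at chr12:17266461-17266539 (plus) and Hsp90b1, with 2 elements, at chr10:86705503-86705686 (minus). Hspe1, at chr1:55088029-55088106 (plus), shares its stretch with Hspd1, which is read from the other strand, and the capitals there cover 2 overlapping heat shock elements.
Hspa5: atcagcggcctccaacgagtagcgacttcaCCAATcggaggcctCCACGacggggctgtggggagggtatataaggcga
Calr: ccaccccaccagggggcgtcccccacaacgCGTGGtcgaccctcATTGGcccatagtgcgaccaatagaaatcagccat
Canx: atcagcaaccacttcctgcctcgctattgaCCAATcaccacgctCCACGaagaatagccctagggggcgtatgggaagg
Dnajc3: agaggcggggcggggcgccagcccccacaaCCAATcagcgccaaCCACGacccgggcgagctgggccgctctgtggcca
Pdia6: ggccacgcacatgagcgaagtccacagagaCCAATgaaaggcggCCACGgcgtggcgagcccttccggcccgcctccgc
Hsp90b1: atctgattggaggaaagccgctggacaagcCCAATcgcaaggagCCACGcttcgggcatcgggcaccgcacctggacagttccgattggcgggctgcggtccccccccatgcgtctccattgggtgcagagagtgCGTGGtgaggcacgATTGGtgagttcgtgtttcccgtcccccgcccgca
Hspe1: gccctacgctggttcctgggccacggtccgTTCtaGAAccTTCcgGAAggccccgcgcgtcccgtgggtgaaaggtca

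Values are deposited intensities on a linear scale, and the lines appear to have been processed separately, so each mutant was read only against its own control. Array medians ran from 185.8 (knockout control 3) and 188.1 (overexpressor 1) to 219.4 (overexpressor control 1), and 4 of 12 arrays correlated better with the opposite group of their line than with their own. Slc2a4 itself read 624.6, 1109.7 and 1041.7 on the overexpressor arrays against 639.0, 582.7 and 1212.1 on their controls, and 377.5, 365.4 and 363.4 on the knockout arrays against 416.1, 513.5 and 614.2. The knockouts lay below their controls without overlap and the overexpressors overlapped theirs, and limma's adjusted p was 1 and 0.93 (log2 change -0.43, 95% interval -0.99 to 0.14, and 0.22, -0.35 to 0.78). The arrays therefore give no test-backed check of either label. In the knockout, 1.93% of all probe sets lay below control without overlap, as Slc2a4 did. The adipocyte markers Adipoq (5196.0 to 6985.5 over the overexpressor line, 5948.0 to 6878.2 over the knockout line) and Fabp4 (4298.1 to 5151.6 and 3487.8 to 3758.9) were bright on every array, and 7 of 9 adipocyte markers were tested. In whole tissue, fewer cells of a type and less RNA per cell cannot be told apart.

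None of the 53 tested chaperone and stress genes passed limma's test at a Benjamini-Hochberg adjusted p of 0.05 in any comparison. In the overexpressor the smallest adjusted p among them was 0.916, in the knockout it was 1, and for the difference between the effects it was 0.893. Over all 7454 probe sets the same test called 6 (0.0805%) in the overexpressor, 9 (0.121%) in the knockout and 12 (0.161%) for the difference. At an unadjusted p under 0.05 there were 3 of the 53 in the overexpressor (Hspa1a, Dnajb9 and Calr, all lower than control), where 355 of all probe sets (4.76%) reached it, 263 of them lower (3.53%). In the knockout there was 1 (Dnajc17, higher) against 297 (3.98%), 258 of them higher (3.46%), and for the difference there was none against 370 (4.96%). In the overexpressor 3 of the 53 lay below control without overlap (Calr, Dnajc2 and Pdia5), as did 485 of all probe sets (6.51%). In the knockout 1 lay above (Hspb8) and 1 below (Hspa1a), against 422 (5.66%) and 144 (1.93%) of all probe sets. By the tested probe set that represents each gene, none of the 53 was separated in opposite directions in the lines, as 47 probe sets were (0.631%). With counts this small, none is read as a result about the chaperone genes.

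The intervals give the range of change that the values of each gene allow. They are per gene, not joint over the 53, and were made after 36.92 was added to each intensity. That constant understates changes of dim genes, and genes too dim to test have no interval. On this scale the 95% interval of every one of the 53 genes lay within 1 log2 unit of zero in both comparisons with control. The median reach was 0.34 to either side, and the lowest limit was -0.99, for Hspa1a in the overexpressor. For the difference between the effects 44 of 53 lay within 1 unit. The 9 that reached further were Cct2, Cct4, Dnajb6, Dnajc9, Dnajc15, Hspa9, Hspb8, Hspd1 and Pdia3. The spread between arrays of a group was 0.20 log2 units for the median chaperone gene and 0.18 for the median probe set tested, and it was highest for Hspa9 (0.38) and Hspa1b (0.37).

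**Figure D1:**
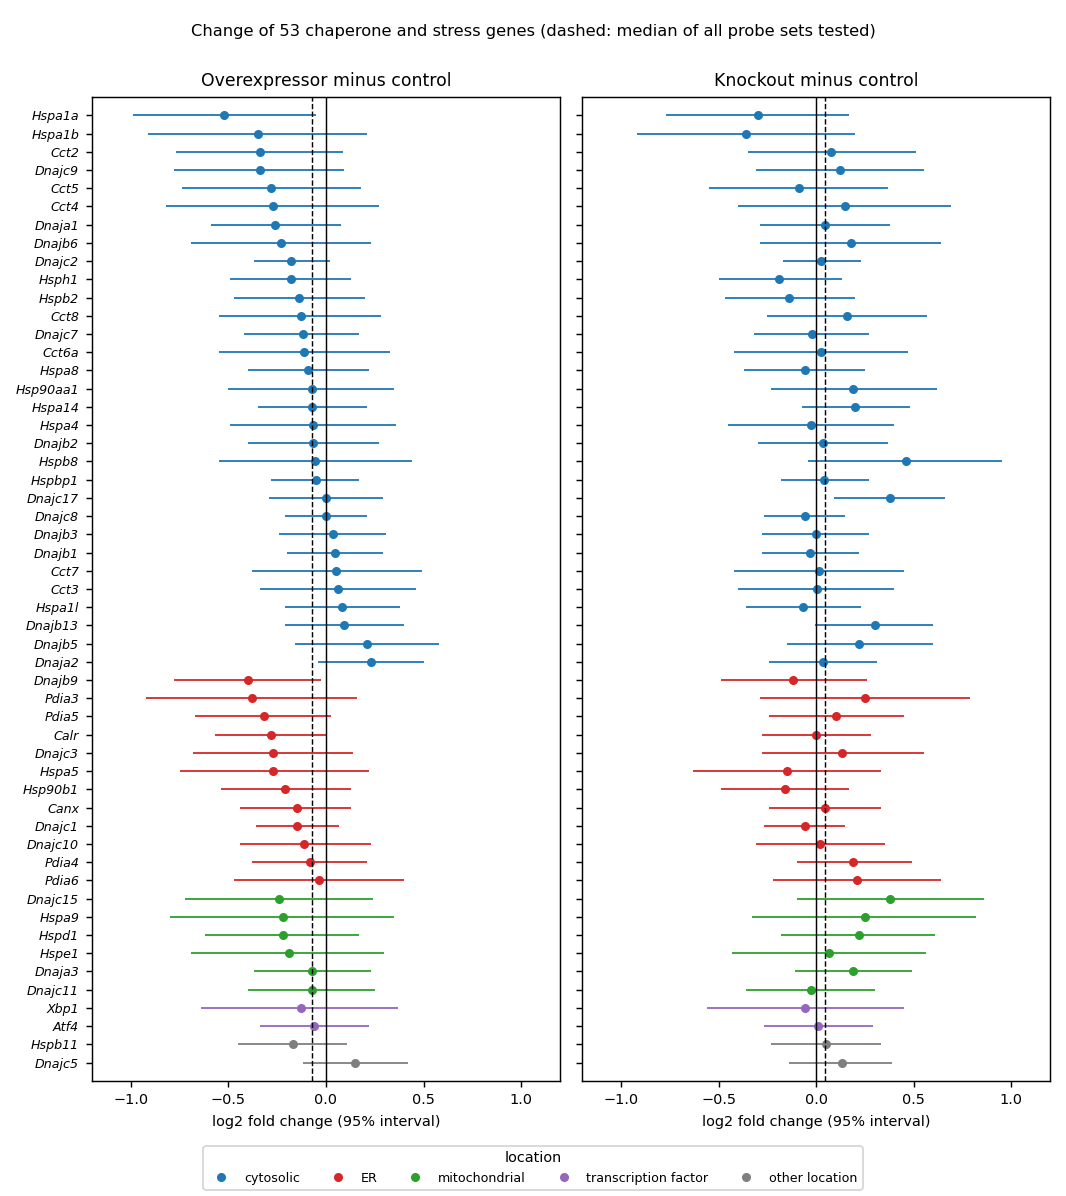
Log2 fold change (x axis, limma, with 95% interval) of the 53 tested genes (rows, coloured by location) for overexpressor minus control (left) and knockout minus control (right), 3 arrays per group. The dashed line is the median of all 7454 probe sets (-0.072 left, 0.043 right). On the deposited scale all 12 ER and 6 mitochondrial points lie left of zero in the left panel (10 of 12 and 4 of 6 after quantile normalization), and no interval reaches 1 log2 unit from zero.

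The 31 cytosolic genes had a median log2 change of -0.074 in the overexpressor (10 above zero, 21 below) and 0.027 in the knockout (19 above, 12 below), and after quantile normalization the medians were -0.00081 (15 above, 16 below) and -0.038 (12 above, 19 below). The overexpressor median was -0.026 without overexpressor control 1 and -0.15 without overexpressor control 3, and the knockout median 0.11 without knockout control 2 and -0.05 without knockout control 3. On the deposited scale, with all arrays, the medians were within 0.0022 and 0.015 of those of all probe sets. The stress-inducible Hsp70 genes held the lowest value of all 53 in each line, Hspa1a in the overexpressor and Hspa1b in the knockout. Hspa1a, which cells make in quantity when proteins unfold, read 152.8, 109.7 and 133.4 in the overexpressors and 315.0, 206.5 and 127.3 in their controls. Overexpressor control 3 was as low as the mutants, so the groups overlapped, and the log2 change was -0.52 (SE 0.22, limma unadjusted p = 0.0318, adjusted p = 0.916). In the knockout line Hspa1a read 233.7, 201.2 and 244.8 against 273.8, 326.6 and 260.4. Here all 3 knockouts lay below all 3 controls, with a log2 change of -0.30 (SE 0.22, limma adjusted p = 1). Without overexpressor control 3 the overexpressor value was -0.80 on the log2 scale and limma's adjusted p 0.107, the smallest that any chaperone gene reached in any setting. Without overexpressor control 1 the Hspa1a value was -0.25 (limma adjusted p = 1), and in that setting none of the 53 genes reached an unadjusted p under 0.05.

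Its near-identical neighbour Hspa1b, whose probes may pick up the same transcripts, read 830.4, 552.7 and 560.6 in the overexpressors against 1184.0, 920.3 and 502.3. In the knockouts it read 644.3, 563.9 and 773.6 against 880.8, 950.2 and 736.6. The groups overlapped in both lines, with log2 changes of -0.35 and -0.36 (SE 0.26 each, limma adjusted p = 0.916 and 1). The interval of the difference between the lines ran from -0.81 to 0.78, so neither a like nor an unlike response of Hspa1b was shown.

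Hsph1, an Hsp110 that swaps the nucleotide on Hsp70 and one of the genes with a heat shock element, read 423.3, 381.1 and 398.1 in the overexpressors against 550.3, 430.8 and 402.6. In the knockouts the values were tight, at 309.4, 312.3 and 332.2, against 298.1, 452.3 and 363.5. The log2 changes were -0.18 and -0.19 (SE 0.14 each, limma adjusted p = 0.916 and 1), and both lines overlapped with their controls. Hspa8, the constitutive Hsp70, read 2302.2, 2368.6 and 2512.4 in the overexpressors against 2925.7, 2553.3 and 2220.7 (log2 change -0.091, which was 0.041 after quantile normalization). In the knockouts it read 1820.2, 2023.9 and 2339.4 against 2218.1, 2428.2 and 1817.5 (-0.06), and it overlapped in both lines. Of the 7 cytosolic Hsp70 and Hsp110 genes tested, 6 had a log2 change below zero in the overexpressor (median -0.091) and 6 in the knockout (median -0.067). Against the median of all probe sets, 5 of 7 and 6 of 7 lay lower.

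Hsp90aa1, the inducible cytosolic Hsp90, read 1233.5, 1632.4 and 1486.3 in the overexpressors against 1643.0, 1568.9 and 1360.8, and 1533.7, 1506.5 and 2015.2 in the knockouts against 1479.2, 1915.9 and 1084.2. The knockout groups overlapped across almost the whole range, with a log2 change of 0.19 (SE 0.19), which was -0.011 without knockout control 3. Its constitutive twin Hsp90ab1 had no probe set of its own name. Hspb1, the best known small heat shock protein, stayed between 21.9 and 24.4 on all arrays, at the floor of the table, so nothing can be said of its level. Hspb8, a small heat shock protein that hands misfolded proteins to autophagy, read 963.6, 1026.6 and 1009.7 in the knockouts against 824.2, 943.4 and 473.1 in their controls. All knockouts lay above all controls, and the log2 change was 0.46 (SE 0.23, limma unadjusted p = 0.0684, adjusted p = 1). The value rested on knockout control 3, the dimmest array of the line, and was 0.17 without it. Hspb8 was also read by a second, dim probe set (22.27 to 126.94) whose groups overlapped. In the overexpressors Hspb8 read 693.6, 991.3 and 1118.6 against 963.3, 821.7 and 1101.5 (log2 change -0.057).

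The J proteins deliver clients to Hsp70 and start its ATP cycle. Those of the ER and mitochondria are given with their sets. Of the 13 cytosolic or nuclear J proteins tested, 7 were above and 6 below zero in the overexpressor (median 0.00039). In the knockout 9 were above and 4 below (median 0.036). Against the median of all probe sets, 8 lay higher and 5 lower in the overexpressor, and 5 higher and 8 lower in the knockout. Dnajb1, the J partner of inducible Hsp70, read 218.2, 251.5 and 287.6 in the overexpressors against 268.7, 241.4 and 218.0, and 222.2, 206.0 and 215.1 in the knockouts against 205.4, 248.0 and 207.8. Its groups overlapped in both lines, and its log2 changes were 0.046 (interval -0.20 to 0.29) and -0.03 (-0.28 to 0.22).

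Dnaja1 read 736.7, 864.7 and 896.1 against 1168.1, 858.4 and 994.7 in the overexpressor line (log2 change -0.26, SE 0.15). Dnaja2, its close relative, had the opposite sign, at 425.4, 445.6 and 340.0 against 322.0, 356.9 and 331.3 (log2 change 0.23, SE 0.13, limma unadjusted p = 0.0919, adjusted p = 0.916). Both pairs of groups overlapped. Dnajc2, which works at the ribosome exit with Hspa14, read 204.4, 192.9 and 207.3 against 252.3, 213.5 and 232.6. The overexpressors lay below all controls, with a log2 change of -0.18 (SE 0.092, limma unadjusted p = 0.0785, adjusted p = 0.916). A second Dnajc2 probe set was separated the same way (182.6, 200.2 and 194.6 against 217.0, 200.6 and 210.4).

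In the knockout line the J protein of the cytosolic or nuclear set furthest from its control was Dnajc17, a nuclear one linked to splicing. It read 174.6, 201.1 and 220.3 against 175.8, 114.7 and 146.9, so the groups overlapped by the margin between knockout 1 and knockout control 1. The log2 change was 0.38 (SE 0.13, limma unadjusted p = 0.014, adjusted p = 1) and 0.25 without knockout control 2, and in the overexpressor line the gene stood at 246.2, 269.0 and 280.9 against 265.1, 238.8 and 293.3 (0.00039). The difference between the lines was 0.38 (interval -0.028 to 0.78, limma adjusted p = 0.893). Dnajb13, known from sperm tails and cilia, read 353.8, 377.3 and 254.8 in the knockouts against 270.9, 230.6 and 271.3 (0.30, SE 0.14), with knockout 3 inside the control range. Hspa14 read 170.6, 193.4 and 204.8 against 181.6, 160.3 and 138.3 (0.20, SE 0.13), also with overlap.

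The 7 tested subunits of TRiC with a Cct symbol had a median log2 change of -0.13 in the overexpressor (5 below zero, 2 above) and 0.024 in the knockout (1 below, 6 above). The subunit Tcp1 lacks such a symbol and was listed with the cochaperones. Cct3, above zero in the overexpressor (0.062), was also read by probe sets at -0.052 and -0.073. Against the median of all probe sets, 5 lay lower and 2 higher in the overexpressor, and 4 lower and 3 higher in the knockout. Cct2 read 175.9, 340.2 and 330.5 in the overexpressors against 419.8, 315.4 and 333.9, where overexpressor 1 alone stood low (log2 change -0.34, SE 0.20, and -0.07 without that array). In the knockouts it read 91.8, 102.1 and 99.1 against 98.1, 104.5 and 71.5 (0.078). As a mean over its subunits, TRiC deviated by -0.31 log2 units from the line mean on overexpressor 1 and by -0.45 on knockout control 3, the dimmest arrays of the lines, and by 0.29 on overexpressor control 1.

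**Figure D2:**
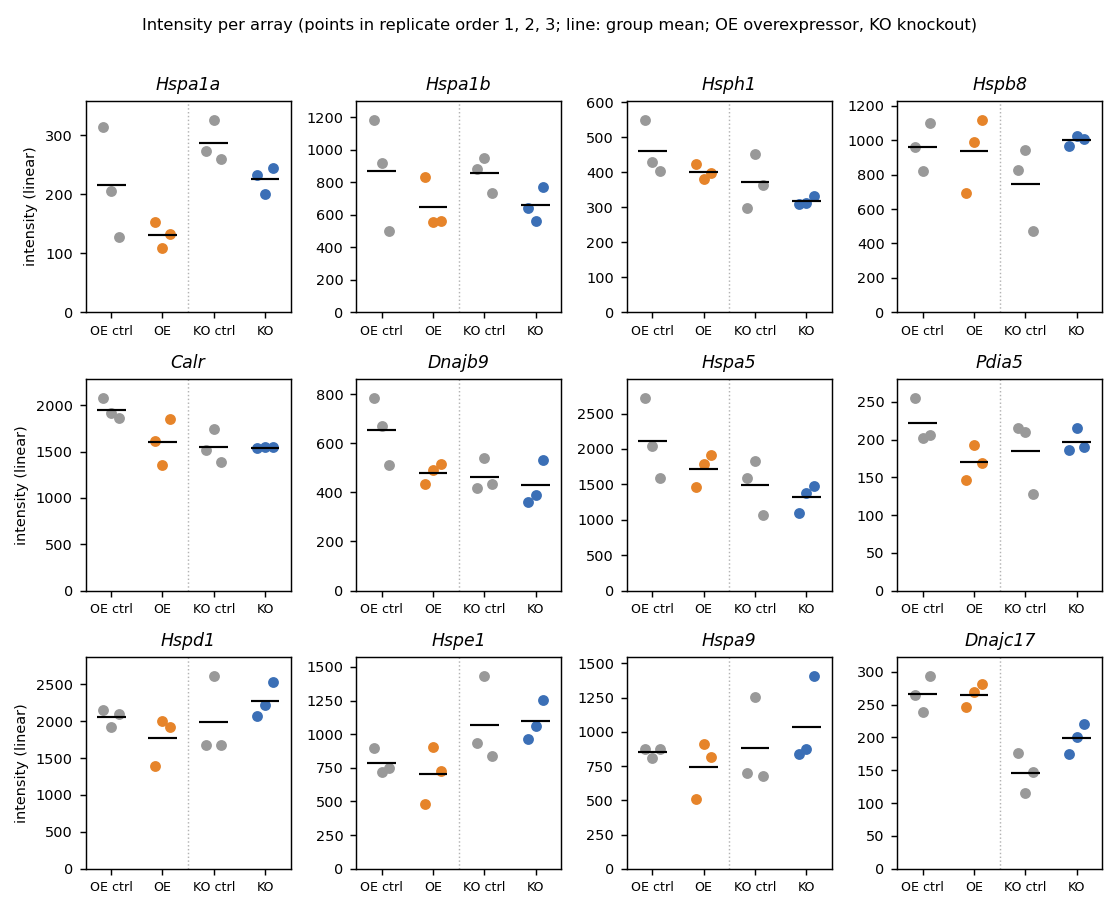
Intensity on each array (y axis, linear, from 0) of 12 genes, with points for replicates 1 to 3 in each of 4 groups and a line at the group mean. Hspa1a of knockout control lies wholly above knockout and Hspb8 wholly below, Calr and Pdia5 of overexpressor control lie wholly above overexpressor, and the other groups shown overlap.

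The ER set had every one of its 12 tested genes below control in the overexpressor, with a median log2 change of -0.24 (range -0.40 to -0.035) where the median of all probe sets was -0.072 and 70.3% of them were below zero. After quantile normalization the ER median was -0.12, and Pdia4 and Pdia6 were above zero. Against the median of all probe sets, 11 of 12 lay lower, and Pdia6 lay higher. None passed the adjusted test. At an unadjusted p under 0.05 there were 2 ER genes (4.76% of all probe sets), and none without overexpressor control 1, and 2 lay below their controls without overlap (6.51% of all probe sets). In the knockout the ER set was split, with 7 above and 5 below zero (median 0.032, which became -0.026 after quantile normalization and -0.075 without knockout control 3), where the median of all probe sets was 0.043 and 63.1% of them were above zero.

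Calreticulin (Calr), which binds sugar chains and calcium in the ER, read 1618.4, 1353.3 and 1848.4 in the overexpressors against 2078.3, 1913.2 and 1862.1. The groups did not overlap, though overexpressor 3 and control 3 lay close together, and the log2 change was -0.28 (SE 0.13, limma unadjusted p = 0.0484, adjusted p = 0.916), which was -0.17 without overexpressor 2. In the knockouts Calr read 1534.1, 1547.1 and 1548.0, close together, against 1520.3, 1747.3 and 1384.4 (log2 change -0.00060). Its membrane-bound relative calnexin (Canx) read 515.9, 565.6 and 690.9 against 723.5, 719.9 and 542.0 in the overexpressor line and 202.1, 203.4 and 211.9 against 209.1, 184.3 and 203.2 in the knockout line. Both overlapped, with log2 changes of -0.15 and 0.043 (SE 0.13 each).

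Hspa5 (BiP), the ER Hsp70 that also holds the stress sensors inactive, read 1469.0, 1785.2 and 1911.2 in the overexpressors against 2719.2, 2046.1 and 1584.6. The controls spanned more than the mutants, since control 1 was the highest and control 3 lay among the mutants (log2 change -0.27, SE 0.22). In the knockout line it read 1099.8, 1382.0 and 1481.7 against 1587.6, 1827.0 and 1067.0 (-0.15, SE 0.22). Hsp90b1, the ER Hsp90 with 2 ER stress elements, had the same order of controls, at 1759.1, 1842.8 and 1767.8 against 2561.1, 2146.5 and 1609.8 (-0.21, SE 0.15). Its knockouts read 2174.0, 2098.6 and 2504.4 against 2512.2, 2764.9 and 2309.1 (-0.16, SE 0.15), again with overlap.

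Dnajb9, an ER J protein that Xbp1 induces, had the lowest log2 change of the ER set. It read 432.9, 492.4 and 517.1 against 784.4, 668.8 and 510.2 in the overexpressor line (-0.40, SE 0.17, limma unadjusted p = 0.0379, adjusted p = 0.916). Only control 3 kept the groups from separating. In the knockout line it read 362.3, 389.1 and 532.5 against 417.7, 538.3 and 433.9 (-0.12, SE 0.17). A second, dimmer Dnajb9 probe set that was left out of the test read 119.5, 116.8 and 126.1 against 131.4, 164.7 and 137.2 in the overexpressor line and 121.2, 119.9 and 136.9 against 114.1, 100.5 and 113.0 in the knockout line. There the mutants lay below control in the overexpressor and above it in the knockout, without overlap, while the brighter probe set was below zero in both lines.

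The disulfide isomerases make and shuffle the bonds that hold secreted proteins together. They had opposite signs in the lines: 4 of 4 below zero in the overexpressor (median -0.20) and 4 of 4 above zero in the knockout (median 0.20). Among the other tested ER genes, Canx (-0.15 and 0.043), Dnajc3 (-0.27 and 0.13) and Dnajc10 (-0.11 and 0.02) had these signs too. The rest were below zero in both lines. Of all probe sets, 70.3% were below zero in the overexpressor and 63.1% above zero in the knockout, so these signs are common on the arrays. Against the median of all probe sets, 3 of 4 lay lower in the overexpressor and 4 of 4 higher in the knockout. The mitochondrial genes had mostly the same signs. The sign of 2 of the overexpressor values depended on the scaling, since Pdia4 became 0.0046 and Pdia6 0.067 after quantile normalization. Pdia3, the partner of calreticulin and calnexin, read 423.9, 773.8 and 696.0 against 975.0, 899.6 and 600.2 in the overexpressor line (-0.38, SE 0.25) and 511.3, 642.8 and 739.9 against 674.6, 519.2 and 397.6 in the knockout line (0.25, SE 0.25). The difference between the effects was 0.63 (interval -0.14 to 1.40, limma adjusted p = 0.893), and all groups overlapped.

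Pdia5 was separated in the overexpressor line, at 146.9, 193.0 and 168.9 against 255.0, 202.3 and 206.4 (-0.32, SE 0.16, limma unadjusted p = 0.0669, adjusted p = 0.916). In the knockouts it read 185.7, 215.4 and 190.5 against 215.9, 210.0 and 128.0 (0.10, SE 0.16), a value that was -0.096 without knockout control 3. Pdia4 read 540.3, 537.5 and 545.6 against 594.9, 627.8 and 509.4 (-0.083), and in the knockout line 403.1, 618.5 and 518.8 against 428.3, 429.3 and 458.1 (0.19). Pdia6 read 521.2, 701.3 and 649.8 against 698.2, 768.0 and 477.4 (-0.035), and in the knockout line 465.5, 529.5 and 610.8 against 591.6, 430.0 and 370.2 (0.21). Each of these groups overlapped with its control, and Pdia6's 3 probe sets differed in sign in the overexpressor line (-0.035, -0.073 and 0.088).

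Hyou1, an ER relative of Hsp110, was too dim to test. It read 36.2, 50.7 and 36.1 in the knockouts against 59.5, 59.5 and 57 in their controls, without overlap, and 43.9, 60.9 and 42.7 against 60.7, 49.6 and 59.1 in the overexpressor line, with overlap. The ER stress element printed for 6 ER genes did not go with a lower or higher median. The 6 tested ER genes with an ER stress element had a median log2 change of -0.24 in the overexpressor and 0.02 in the knockout, and the 6 with no match had -0.23 and 0.06.

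The mitochondrial set had 6 of 6 tested genes below zero in the overexpressor (median -0.21, range -0.24 to -0.073) and 5 of 6 above zero in the knockout (median 0.20, range -0.028 to 0.38), with Dnajc11 the exception. Of all probe sets, 70.3% were below zero in the overexpressor and 63.1% above zero in the knockout, with medians of -0.072 and 0.043. After quantile normalization 4 of 6 were below zero in the overexpressor (median -0.11). The overexpressor median was 0.0054 without overexpressor 1 and -0.35 without overexpressor 2. The knockout median was 0.10 without knockout control 3, 0.12 without knockout control 1, 0.13 without knockout 3 and 0.36 without knockout control 2.

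Hspd1 (Hsp60), the wall of the mitochondrial folding chamber, read 1390.6, 2000.7 and 1916.9 in the overexpressors against 2145.4, 1914.8 and 2092.1, and 2074.6, 2214.4 and 2524.0 in the knockouts against 1681.5, 2608.6 and 1671.7. Overexpressor 1 was the low value in the first line, and knockout control 2 the high one in the second (log2 changes -0.22 and 0.22, SE 0.18 each, limma adjusted p = 0.916 and 1). Its lid Hspe1, transcribed from the opposite strand of the shared promoter printed above, read 478.3, 907.5 and 723.2 against 894.5, 722.3 and 745.8 and 967.8, 1064.3 and 1257.4 against 937.0, 1430.9 and 836.4 (-0.19 and 0.066, SE 0.23 each). Overexpressor 1 and knockout control 2 stood out for Hspe1 as for Hspd1. A second Hspd1 probe set disagreed: it read 366.1, 352.3 and 340.8 in the overexpressors against 229.8, 269.2 and 285.5, higher without overlap (log2 change 0.39, limma unadjusted p = 0.00385, adjusted p = 0.509), so the direction of Hspd1 in the overexpressor depends on the probe set.

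Hspa9, the motor of protein import, read 510.0, 911.4 and 814.1 against 871.7, 807.4 and 876.1, and 836.1, 871.3 and 1405.7 against 701.6, 1255.3 and 677.3. Overexpressor 1 was low in the first line, and knockout 3 and knockout control 2 were high in the second (log2 changes -0.22 and 0.25, SE 0.26 each). Without overexpressor 1 the first value was 0.017. Dnaja3, a J partner of Hspa9, read 632.8, 820.2 and 814.4 against 717.9, 784.2 and 882.8 (-0.074) and 670.9, 635.7 and 731.4 against 562.6, 686.6 and 529.0 (0.19, SE 0.14). Dnajc15, a J protein of the inner membrane, had the highest mitochondrial value in the knockout, at 238.3, 305.0 and 436.4 against 225.1, 272.0 and 212.8 (0.38, SE 0.22, limma unadjusted p = 0.111, adjusted p = 1), where knockout 3 was highest, knockout 1 lay inside the control range and the value was 0.17 without knockout 3. In the overexpressor line it read 145.8, 303.9 and 222.8 against 234.9, 269.9 and 282.7 (-0.24). The difference between the effects was 0.62 (interval -0.060 to 1.30, limma adjusted p = 0.893).

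Xbp1, the ER stress factor activated by splicing, read 905.6, 1353.5 and 1451.2 against 1455.2, 1489.8 and 1091.5 in the overexpressor line and 840.3, 987.6 and 1076.6 against 1153.9, 1271.6 and 689.3 in the knockout line (-0.13 and -0.059, SE 0.23 each). The array does not tell the spliced form from the unspliced one. Atf4, which is controlled mostly by translation, read 924.7, 846.4 and 859.0 against 1030.2, 845.9 and 877.7 and 928.1, 938.9 and 1106.8 against 1020.9, 1105.4 and 837.2 (-0.06 and 0.0094, SE 0.13 each). Ddit3 (CHOP), its partner in prolonged stress, was too dim to test, at 191.4, 177.6 and 176.1 against 198.1, 145.8 and 150.6 and at 124.1, 120.6 and 115.7 against 108.6, 149.7 and 153.3. All of these groups overlapped.

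Set side by side, the gaps between locations overlapped between mutant and control in both lines. The mean of the ER genes minus the mean of the cytosolic genes, as deviations from the line mean, was -0.099, -0.038 and -0.045 on the overexpressor arrays and 0.13, 0.17 and -0.11 on their controls. Control 3 lay below the mutants, so the groups overlapped. In the knockout line this gap was -0.042, 0.058 and -0.021 against 0.062, -0.056 and -0.00050, around zero in both groups. Mitochondrial minus cytosolic genes gave -0.26, 0.17 and -0.019 against -0.073, 0.054 and 0.13 in the overexpressor line and 0.023, 0.077 and 0.11 against -0.21, 0.057 and -0.055 in the knockout line. The second pair of groups overlapped only through knockout control 2. The difference between the effects had a median of 0.10 for cytosolic, 0.26 for ER and 0.35 for mitochondrial genes, where the median of all probe sets was 0.12, so relative to that median it was -0.019, 0.14 and 0.23.

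**Figure D3:**
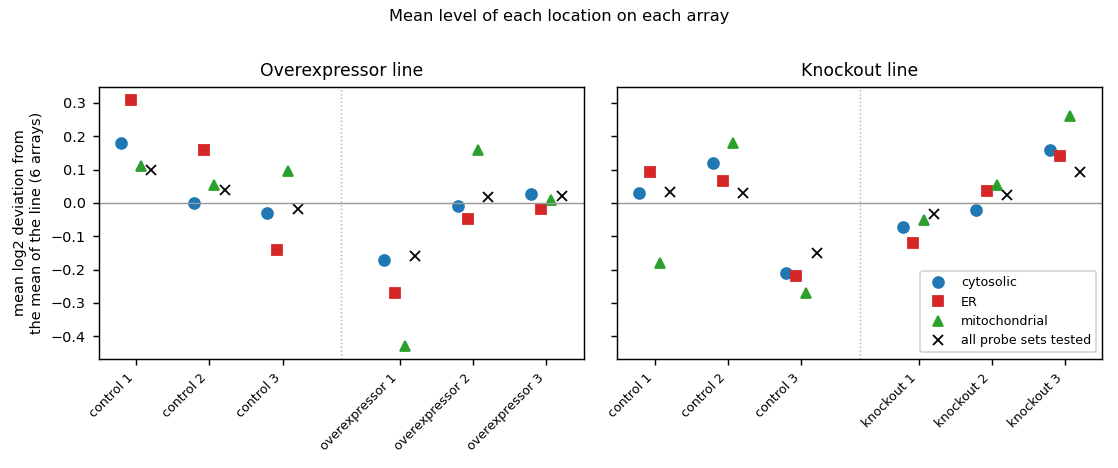
Mean log2 deviation from the mean of the line's 6 arrays (y axis) on each array (x axis) for the 31 cytosolic, 12 ER and 6 mitochondrial genes and for all 7454 probe sets. Overexpressor 1 (mitochondrial -0.43) and knockout control 3 (mitochondrial -0.27) are low in every set, and overexpressor control 1 has the highest ER and cytosolic means (0.31 and 0.18).

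Single arrays carried much of these shifts. Overexpressor 1 held the lowest value of its line for 27 of 53 genes (50.9%, against 48.4% of all probe sets), and overexpressor control 1 the highest for 31 (58.5%, against 39.8%). For ER genes, overexpressor control 1 was the highest in 10 of 12. The ER median of -0.24 in the overexpressor was -0.080 without overexpressor control 1 and -0.34 without overexpressor control 3. In the knockout line, knockout control 3 held the lowest value for 32 genes (60.4%, against 43.1%), knockout 3 the highest for 23 (43.4%, against 37.5%) and knockout control 2 the highest for 19 (35.8%, against 14.1%).

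**Figure D4:**
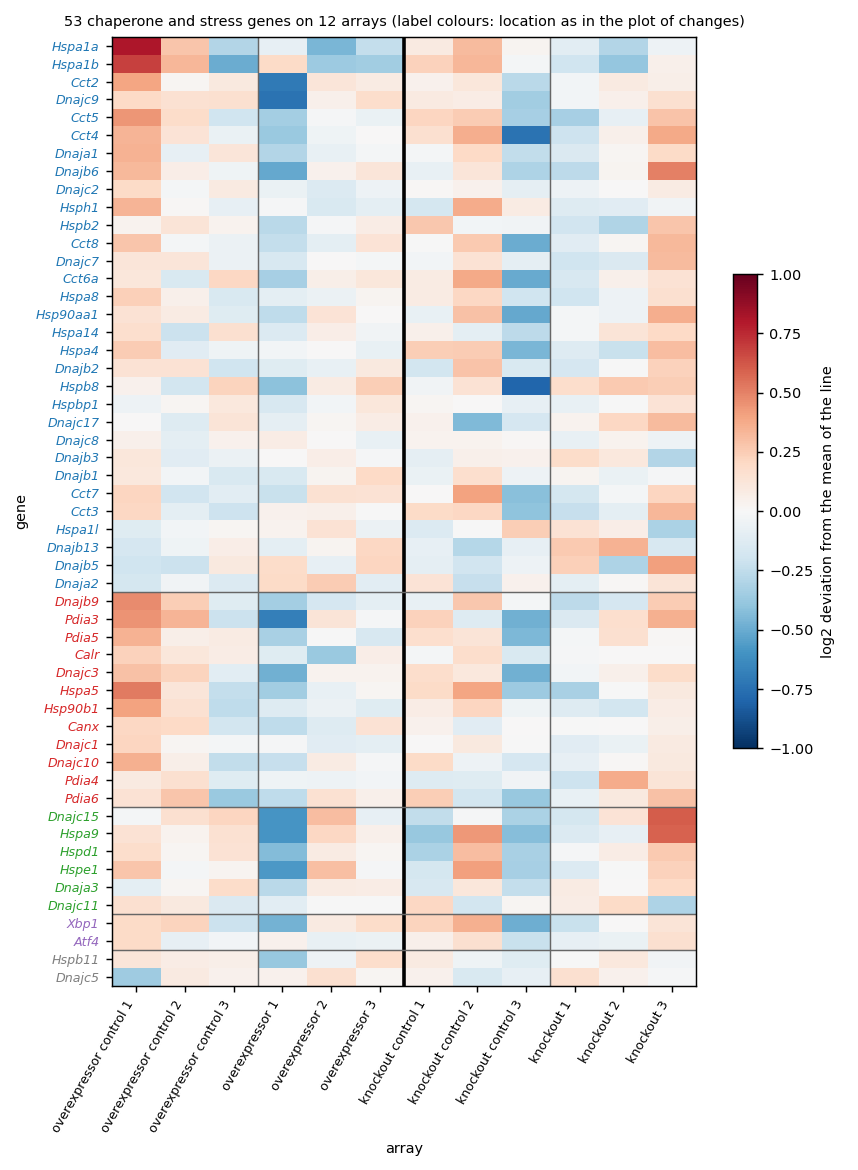
Log2 deviation from the mean of the line (colour, red above and blue below) of the 53 tested genes (rows, label colour for location) on 12 arrays (columns). The columns of overexpressor 1 and knockout control 3 are mostly blue and that of overexpressor control 1 mostly red, with Hspa1a and Hspa1b its deepest red.

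Some other lists were high or low on the same arrays. The 13 immediate early genes, which handling of tissue also turns on, deviated by 0.48 on overexpressor control 1, against 0.35 for the 9 tested heat-inducible chaperone genes and 0.10 for all probe sets. In the overexpressor comparison the immediate early genes had a median of -0.20 (12 of 13 below zero), where 70.3% of all probe sets were below zero (median -0.072). Their knockout median was -0.021 (6 above zero, 7 below), where 63.1% of all probe sets were above zero. The 6 tested of 7 macrophage markers deviated by 0.67, 0.18 and -0.36 on overexpressor controls 1 to 3 and by -0.19, -0.23 and -0.077 on the overexpressors, and the 7 fibroblast markers by 0.47, 0.33 and -0.12 against -0.34, -0.24 and -0.091. The summed intensity of the macrophage list ran from 3057.4 to 6502.9 on these controls and from 3403.4 to 3757.7 on the overexpressors, and that of the fibroblast list from 18852.0 to 27449.6 and from 16420.3 to 19811.4. The ER genes followed the same order of controls (0.31, 0.16 and -0.14), and so did all probe sets (0.10, 0.039 and -0.018). Smooth muscle, endothelial, mesothelial and B cell markers had this order too, so it is not particular to the ER genes. Adipocyte markers (-0.13, 0.16 and 0.13) and skeletal muscle markers (-0.22, 0.065 and 0.26) did not follow it on these controls. Neither did T cell, pancreatic acinar and epithelial markers. On knockout controls 1 to 3 the macrophage markers deviated by 0.29, -0.29 and -0.10, and the ER genes by 0.092, 0.065 and -0.22. The immediate early genes deviated by 0.21, -0.035 and -0.12 on these arrays, and the heat-inducible chaperone genes by -0.047, 0.29 and -0.17. These 2 lists were therefore highest on different knockout controls. The part of these lists in the chaperone values was not tested.

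The partners of the chaperones, from lists chosen by role, had no adjusted call either in any of the 4 lists. Of 28 cochaperones and folding partners listed as cytosolic, 19 were tested. In the overexpressor 18 were below zero (median -0.15), 12 of them below the median of all probe sets. In the knockout 14 were above zero (median 0.082), 12 of them above that median. Sugt1, an Hsp90 partner, had the smallest p in the overexpressor (log2 change -0.32, limma adjusted p = 0.916). In the knockout it was Serpinh1 (0.14, limma adjusted p = 1), a collagen chaperone that sits in the ER although this list holds it. Of 37 ER folding and stress genes 24 were tested, with 19 below zero in the overexpressor (median -0.15), 15 of them below the median of all probe sets, and 16 above zero in the knockout (median 0.032), 11 of them above that median. Derl1 and Derl2, which draw misfolded proteins out of the ER, had opposite signs in the overexpressor (0.30 and -0.20). Sel1l, of the same route, was 0.26 in the knockout (limma unadjusted p = 0.0661, adjusted p = 1).

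Of 17 targets of Atf4 and Ddit3, 11 were tested, and 2 reached an unadjusted p under 0.05 in the knockout, as 3.98% of all probe sets did. They were Psat1, an enzyme of serine synthesis (1307.8 to 1894.0 against 971.5 to 1396.8, log2 change 0.55, limma adjusted p = 1), and Atf3 (180.7 to 235.9 against 224.5 to 283.6, -0.25, limma adjusted p = 1). In the overexpressor Psat1 read 622.0 to 1080.8 against 1117.4 to 1318.2 (-0.41) and Slc3a2, a subunit of amino acid transporters, 626.0 to 886.8 against 896.7 to 1079.8 (-0.31), neither past the adjusted test (limma adjusted p = 0.916 each). These and Ppp1r15b (named after its values were seen) lay below control without overlap in the overexpressor, as 6.51% of all probe sets did. Atf3 lay above, as 171 of all 7454 probe sets did. For the difference between the effects, 4 of the 11 targets reached an unadjusted p under 0.05 (3 above zero, 1 below), against 4.96% of all probe sets. None passed the adjusted test there (smallest limma adjusted p = 0.656). Of 27 mitochondrial chaperone, protease and import genes 17 were tested, with 13 below zero in the overexpressor (median -0.062), 7 of them below the median of all probe sets, and 13 above zero in the knockout (median 0.15), 12 of them above that median. Clpb, a disaggregase, went against the list in the knockout (362.5 to 438.6 against 476.7 to 583.9, -0.34, limma unadjusted p = 0.0289, adjusted p = 1), and Grpel1, the exchange factor of Hspa9, was 0.37 (limma adjusted p = 1).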

How the data were processed

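RNA of mouse perigonadal fat was measured on 12 Affymetrix arrays. As deposited by the authors, each array has a linear intensity for every probe set. How these were summarised, scaled and corrected for background is not given in the sources used here. Their floor was 21.90 in the overexpressor line and 22.27 in the knockout line. Before the log2 transform, 36.92 (the 10th percentile) was added to each intensity, which understates changes of dim probe sets. After leaving out the dimmest 40% of 12422 probe sets, 7454 remained for limma 3.58.1 (R 4.3.3), which fitted a mean for each group and let the prior variance follow brightness. Degrees of freedom were 8 residual and 4.32 from the prior. Adjustment was by Benjamini-Hochberg over all 7454 at 0.05, and the fit was tested on simulated data. SE is the moderated standard error. An exact permutation test of 3 against 3 cannot reach a two-sided p below 0.1 and was not used.

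The platform annotation named 1 gene for 10833 probe sets, several for 396 and none for 1193, and 10817 matched GRCm38.p6 by gene ID. Probe sets with several symbols were left out, so Hsp90ab1 has no value. The genes and lists were chosen with earlier results of these data known. Genes named with all values are a fixed set covering each role and the 6 with the smallest p in each comparison with control. For other lists, up to 2 genes with the smallest p are named per comparison. The other probe sets of Cct3, Dnajb9, Dnajc2, Hspb8, Hspd1 and Pdia6 were shown after their values were seen. A planned look at protein ends was not run, as no protein sequences were used here. Alternatives were 2 other constants, 2 other filters, array medians or quantiles made equal, each line alone, the mean over probe sets, the replicate number as a block, each array left out in turn and the dimmest array of each line left out. Plots were made in Python 3.11.15 with matplotlib 3.10.9.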

Additional observations from a re-analysis of the deposited data

Results flagged for a closer look

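A dimmer probe set of Dnajb9, the ER J protein, and Derl2, which helps move misfolded proteins out of the ER, were singled out because all mutants lay below control in the overexpressor line and above control in the knockout line. For the Dnajb9 probe set the log2 change was -0.20 in the overexpressor and 0.16 in the knockout, a difference of 0.35 that was not tested because the probe set was too dim. The brighter Dnajb9 probe set gave -0.40 and -0.12. Derl2 read 171.3 to 180.8 against 189.2 to 217.4 in the overexpressor line and 184.6 to 230.7 against 163.6 to 181.9 in the knockout line. The difference between its effects was 0.41, with limma's unadjusted p = 0.0121 and adjusted p = 0.794, short of the threshold. Derl2 was picked by these same values, so that p is no independent support. Of all 7454 probe sets tested, 47 (0.631%) were separated in opposite directions in the lines.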

How the results depend on the processing

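With 3 arrays per group, limits come from the number of arrays and from the intensity, not from read depth. No chaperone or stress gene was called in any of the 22 other settings, and over all probe sets the calls ran from 1 to 21 in the overexpressor (6 as reported, 21 without overexpressor control 3), 0 to 11 in the knockout (9) and 1 to 14 for the difference (12). Same-numbered deviations of mutant and control arrays correlated at -0.063, -0.094 and 0.019 in the overexpressor line and at -0.24, -0.036 and -0.362 in the knockout line. Those with different numbers ran from -0.2 to 0.205 and from -0.189 to 0.42. These values show no sign of pairing by number, but deviations from means of 3 arrays cannot exclude it. With the replicate block, limma's smallest adjusted p among the chaperone and stress genes was 0.995, 1 and 0.969, and calls over all probe sets numbered 5, 0 and 1. Over all settings that smallest adjusted p was never below 0.107 in the overexpressor, 0.537 in the knockout and 0.662 for the difference. With fewer probe sets, some dim genes were not tested. Of the named genes, the values that changed sign, all of them short of the test, are as follows, and the cause was not tested unless the array left out is named. With array medians subtracted the overexpressor value was 0.00074 for Hspb8 and 0.023 for Pdia6. With array medians subtracted the knockout value was -0.028 for Atf4, -0.004 for Dnaja2 and -0.0098 for Dnajc2. With quantile normalization the overexpressor value was 0.046 for Atf4, 0.025 for Dnaja3, 0.032 for Hsp90aa1, 0.041 for Hspa8, 0.048 for Hspb8, 0.0046 for Pdia4 and 0.067 for Pdia6. With quantile normalization the knockout value was -0.068 for Atf4, -0.003 for Canx, -0.038 for Dnaja1, -0.029 for Dnaja2 and -0.016 for Dnajc2. With the mean over probe sets the overexpressor value was 0.083 for Hspd1. Without overexpressor 1 and knockout control 3, the dimmest arrays, the overexpressor value was 0.043 for Dnaja3, 0.035 for Hsp90aa1, 0.017 for Hspa9, 0.14 for Hspb8, 0.045 for Hspe1, 0.082 for Pdia6 and 0.071 for Xbp1. Without overexpressor 1 and knockout control 3, the dimmest arrays, the knockout value was -0.10 for Atf4, -0.039 for Cct2, -0.069 for Dnaja1, -0.013 for Dnajc2, -0.011 for Hsp90aa1, -0.085 for Hspe1 and -0.096 for Pdia5. With each array left out in turn, the overexpressor value ran from -0.11 to 0.023 for Atf4, -0.14 to 0.043 for Dnaja3, -0.04 to 0.13 for Dnajb1, -0.065 to 0.065 for Dnajc17, -0.16 to 0.035 for Hsp90aa1, -0.19 to 0.0069 for Hspa8, -0.38 to 0.017 for Hspa9, -0.20 to 0.14 for Hspb8, -0.39 to 0.045 for Hspe1, -0.23 to 0.095 for Pdia6 and -0.27 to 0.071 for Xbp1. With each array left out in turn, the knockout value ran from -0.10 to 0.092 for Atf4, -0.077 to 0.087 for Calr, -0.0022 to 0.074 for Canx, -0.039 to 0.15 for Cct2, -0.069 to 0.15 for Dnaja1, -0.073 to 0.11 for Dnaja2, -0.072 to 0.045 for Dnajb1, -0.013 to 0.058 for Dnajc2, -0.011 to 0.39 for Hsp90aa1, -0.37 to 0.0094 for Hspa5, -0.18 to 0.03 for Hspa8, -0.085 to 0.29 for Hspe1, -0.096 to 0.21 for Pdia5 and -0.32 to 0.11 for Xbp1.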
